A study of Mus musculus with 2 samples.

Results

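The Dlx homeobox family of the mouse was examined in RNA of incisors from wild-type and *Sox21* KO mice. Members were the array probes, other than controls, that the scanner files name *Dlx1*, *Dlx2*, *Dlx3*, *Dlx4*, *Dlx5* or *Dlx6*. This gave 6 probes, 1 for each gene, among 55679 probes kept after outlier spots were left out, and each of the 6 was matched to RefSeq by its accession. The wild-type group is 1 incisor sample and the *Sox21* KO group is 1 incisor sample, both hybridized to Agilent SurePrint G3 Mouse GE arrays in a single colour. The sample labels give postnatal day 0 for both, whereas the study's methods give day 1. Per those methods, wild-type mice were C57BL/6J and the knockout mice were a gift, and the background strain of the latter, the number of animals behind each sample and their sexes are not given in the sources used here. The tissue is a whole incisor or tooth germ, so that epithelium, mesenchyme and any attached bone or muscle were read together, and fewer cells of a type cannot be told apart from less RNA per cell.

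Dlx genes encode transcription factors related to *Distal-less* of the fruit fly and bind DNA through a homeodomain. In mice they lie in pairs on the chromosome, *Dlx1* with *Dlx2*, *Dlx3* with *Dlx4* and *Dlx5* with *Dlx6*, and the genes of a pair face each other and share regulatory DNA between them. In the embryonic jaw, *Dlx1* and *Dlx2* act in both upper and lower arches and are needed together for the upper molars, *Dlx5* and *Dlx6* give the lower jaw its identity, and *DLX3* mutations cause tricho-dento-osseous syndrome, in which enamel, hair and bone are altered.

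Each array value in this family is the brightness of a single spot of a 60-base DNA probe, written here 5′ to 3′ from the scanner files. The first 30 of the 60 bases are shown for *Dlx1*, *Dlx2*, *Dlx3* and *Dlx5*, the last 30 for *Dlx4*, where capitals mark a polyadenylation hexamer, and all 60 for *Dlx6*. They are shown because a probe can bind the RNA of other genes of its family. The comparison below is only of probe with probe. Matches of each probe to the RNA of the other Dlx genes were not analysed, so binding across the family was not tested.
*Dlx1* probe: gttgtcaaaaacgtttggacaagaacacct
*Dlx2* probe: gatttgaatttgtttttatcttgtcctaaa
*Dlx3* probe: ttttttagagcaaccaagagaagcaggtcc
*Dlx4* probe: tctcaaatcacaagctATTAAAatgtatat
*Dlx5* probe: gtgttgtgctggtttagaaatcagaaagaa
*Dlx6* probe: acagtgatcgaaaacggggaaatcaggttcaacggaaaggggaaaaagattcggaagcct

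The longest run of identical bases between any Dlx probe and another Dlx probe was 8 bases. Against all other probes of the array, on either strand, the longest shared run was 16 bases, between the *Dlx1* probe and a probe of *Ccdc116*. By the coordinates in the files (mm9), the *Dlx1* probe lies at chr2:71371499-71371558 on the plus strand and the *Dlx2* probe at chr2:71381553-71381612 on the minus strand. The *Dlx3* probe lies at chr11:94986262-94986357 on the plus strand, a span of 96 bases for 60 bases of probe, and the *Dlx4* probe at chr11:95001777-95001836 on the minus strand. The *Dlx6* probe lies at chr6:6815092-6815151 on the plus strand and the *Dlx5* probe at chr6:6828063-6828122 on the minus strand. Which exon or untranslated region holds each probe was not analysed here.

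The comparison asked how the family stood in wild-type and *Sox21* KO incisors. Each processed signal was divided by the 75th percentile of its array, which was 268 for wild-type and 276 for *Sox21* KO, and log2 ratios are written as *Sox21* KO less wild-type, so that a negative value is lower in *Sox21* KO. With 1 array per genotype, no difference has a replicate check and no test was possible. The error given with a signal is the scanner software's own estimate for that spot, and that of a log2 ratio combines both spots. Neither covers the spread between animals, and having 2 arrays in all is what bounds the precision. As a check of the labels, the targeted gene *Sox21* had processed signals of 1362 in wild-type and 659 in *Sox21* KO at its brighter probe and of 286 and 103 at the other, log2 ratios of -1.09 and -1.51. Both probes were thus lower in, but still well above background on, the array labelled *Sox21* KO, and whether either lies in the deleted part of the gene was not analysed here. Of markers of tooth cell types, all 7 of ameloblasts and all 4 of odontoblasts were well above background on both arrays.

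All 6 Dlx genes were well above background on both arrays, and none reached a 2-fold difference (0 of 6). Among the 13796 genes measured on both arrays, 1.41% were at least 2-fold apart, 0.667% being lower and 0.739% higher in *Sox21* KO, so that 0 of 6 is near that background. *Dlx1* was the member farthest from 0, at 1.44-fold lower in *Sox21* KO, and the other 5 lay within their scanner error of equal signal. Of the 6 genes, 4 were lower in *Sox21* KO and 2 higher, beside 47.6% lower among all measured genes. With the arrays scaled on their medians these became 3 lower and 3 higher, beside 30.7% lower among all measured genes, and without the requirement on background 57.6% of all genes were lower. The median log2 ratio of the family was -0.10, beside 0.01 for all measured genes.

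*Dlx1*, which in the jaw acts with *Dlx2* in the mesenchyme derived from neural crest, had a processed signal of 435 ± 43.8 (scanner error) in wild-type and 310 ± 31.3 in *Sox21* KO. Over the 75th percentile of each array these became 1.63 and 1.13, a log2 ratio of -0.53 ± 0.21. The scanner errors of its normalized signals did not overlap, and the log2 ratio was 2.58 times its scanner error. Of all measured genes, 8.03% were at least as far from 0. The distance from 0 was smaller than the gap between both probes of the same gene in 8.86% of the 2969 genes with 2 measured probes, and *Dlx1* has no second probe to set beside this value.

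*Dlx2*, the partner of *Dlx1* and an early marker of tooth-forming epithelium and mesenchyme, had a processed signal of 4795 ± 480 in wild-type and 4386 ± 439 in *Sox21* KO. The normalized signals were 17.9 and 15.9, a log2 ratio of -0.17 ± 0.20. The errors of its signals overlapped, and 44.0% of measured genes lay at least as far from 0. The log2 ratio of *Dlx1* was 0.36 below that of *Dlx2* (a difference of -0.36 with a scanner error of 0.29), so that the genes of this pair were apart by little more than the error of their 4 spots.

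*Dlx3*, which drives enamel and hair shaft differentiation, had a processed signal of 5102 ± 510 in wild-type and 4743 ± 474 in *Sox21* KO. Normalized, these were 19.1 and 17.2, a log2 ratio of -0.15 ± 0.20. The signals of *Dlx3* were thus close on both arrays, and 49.8% of measured genes were at least as far apart. *Dlx4*, the neighbour of *Dlx3*, had signals of 2359 ± 236 and 2347 ± 235, or 8.81 and 8.52 after normalization. Its log2 ratio of -0.05 ± 0.20 was within the error of 0, and it turned to 0.05 when the arrays were scaled on their medians. *Dlx3* and *Dlx4* differed in log2 ratio by -0.10, with a scanner error of 0.29.

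*Dlx5* and *Dlx6*, which act in the lower jaw and in bone-forming cells, were the members with a higher value in *Sox21* KO. *Dlx5* had a processed signal of 1179 ± 118 in wild-type and 1295 ± 130 in *Sox21* KO, or 4.40 and 4.70 after normalization. Its log2 ratio was 0.09 ± 0.20. *Dlx6* had processed signals of 152 ± 16.1 in wild-type and 159 ± 16.7 in *Sox21* KO. After normalization these were 0.567 and 0.578, a log2 ratio of 0.03 ± 0.22, which became -0.00 when the 75th percentile was taken over probes well above background alone. For comparison, the 95th percentile of the 308 negative-control spots was 5.99 in wild-type and 5.39 in *Sox21* KO, and 0 of them reached the *Dlx6* signal on either array. Signals of different probes were not ranked against each other, because probes differ in how strongly they bind.

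**Figure D1:**
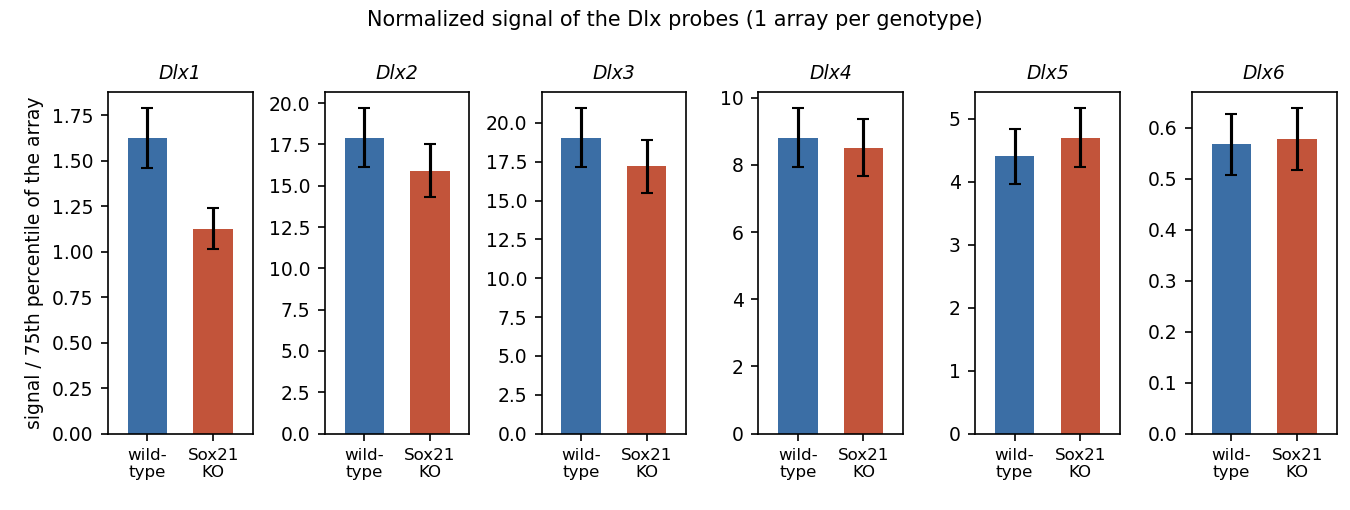
Normalized signal of the 6 Dlx probes on the wild-type array (blue) and the *Sox21* KO array (red), in units of the array's 75th percentile, each gene on its own linear axis from 0. Error bars are the scanner software's error of 1 spot, and they overlap between the arrays for each gene except *Dlx1*, at 1.63 and 1.13.

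The plot of all measured genes shows where these values fall. From the 5th to the 95th percentile, log2 ratios of all measured genes ran from -0.47 to 0.48, and *Dlx1* lay below that range while the other members lay inside it. Of measured genes, 3.90% had a log2 ratio below that of *Dlx1*, which was singled out as the farthest from 0 among 6 members, so that its share does not describe a gene named in advance. Repeat spots of 1 probe, available for 283 probes, gave log2 ratios with a median SD of 0.08. The median gap between both probes of a gene was 0.16. *Dlx2*, *Dlx3*, *Dlx4*, *Dlx5* and *Dlx6* stood about as far from 0 as that gap or nearer.

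**Figure D2:**
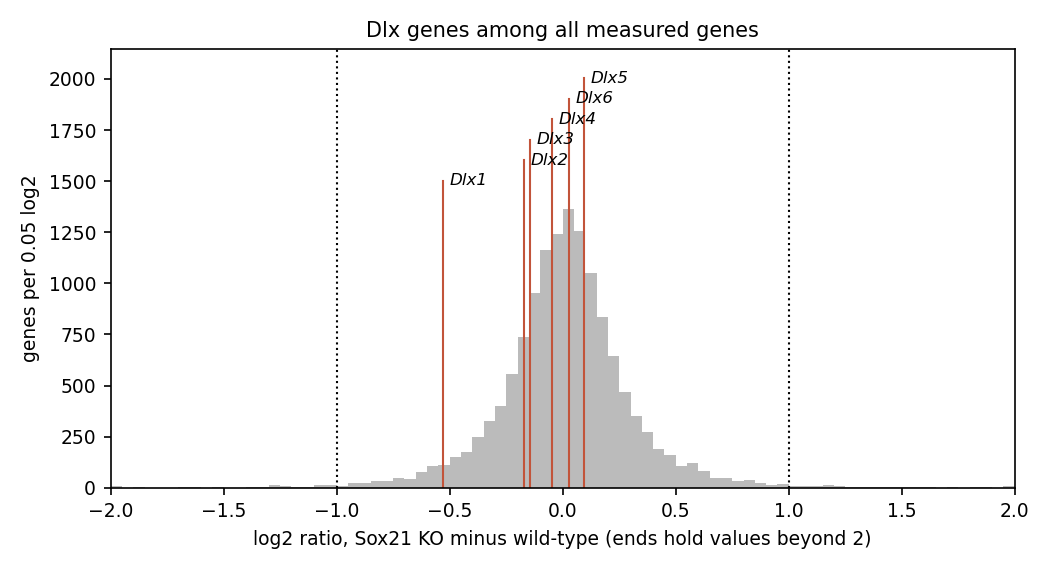
Histogram of the log2 ratio (*Sox21* KO minus wild-type) of the 13796 genes measured on both arrays, in steps of 0.05, with a red line for each Dlx gene and dotted lines at 2-fold. *Dlx1* stands at -0.53 and the other 5 genes between -0.17 and 0.09, with the heights of the lines set for legibility only.

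Noncoding RNAs are transcribed from the Dlx loci and were read by probes of their own. *Dlx6os1*, known as Evf2 and a regulator of *Dlx5* and *Dlx6* in the forebrain, had normalized signals of 0.310 in wild-type and 0.265 in *Sox21* KO, a log2 ratio of -0.22 ± 0.25. *Dlx6os2*, antisense to *Dlx6* and named Dlx6as in the files, had 0.663 and 0.617, a log2 ratio of -0.10 ± 0.21. *Dlx4os*, which the files call A730090H04Rik and which was named through its older symbol, had 0.673 and 0.518, a log2 ratio of -0.38 ± 0.21. All 3 were lower in *Sox21* KO under each of 8 scalings and background corrections, beside 47.6% lower among all measured genes under the main scaling. These settings reuse the same spots and are no independent check. None was past 2-fold (0 of 3), and only *Dlx4os* exceeded its scanner error. Neither array had the antisense RNA *Dlx1as* well above background, with processed signals of 9.94 and 10.1, and was given no ratio. Starts of the probes of *Dlx1* and *Dlx1as* lie 624 bases apart.

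Genes flanking the Dlx pairs were compared by their order along the chromosome. Of 16 listed names, 2 of which are older names of listed genes, 13 were measured, with a median log2 ratio of 0.08, 10 higher and 3 lower in *Sox21* KO, and none past 2-fold (0 of 13). *Metap1d*, a mitochondrial methionine aminopeptidase, is the listed gene directly ahead of *Dlx1*. It had a log2 ratio of -0.58 ± 0.21 at its brighter probe, from 1.04 to 0.694 in normalized signal, and of -0.53 ± 0.22 at the other. Both *Metap1d* probes thus stood as low as *Dlx1*, from which the brighter one is separated by 17722 bases. Beyond this stretch, *Hat1* and *Slc25a12* had 0.15 and 0.10, and *Itga6*, beyond *Dlx2*, had 0.13. Around *Dlx3* and *Dlx4*, the 5 measured neighbours ran from -0.13 at *Itga3* to 0.11 at *Kat7*. Around *Dlx5* and *Dlx6*, the 4 measured neighbours ran from -0.07 at *Asns* to 0.40 at *Slc25a13*.

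**Figure D3:**
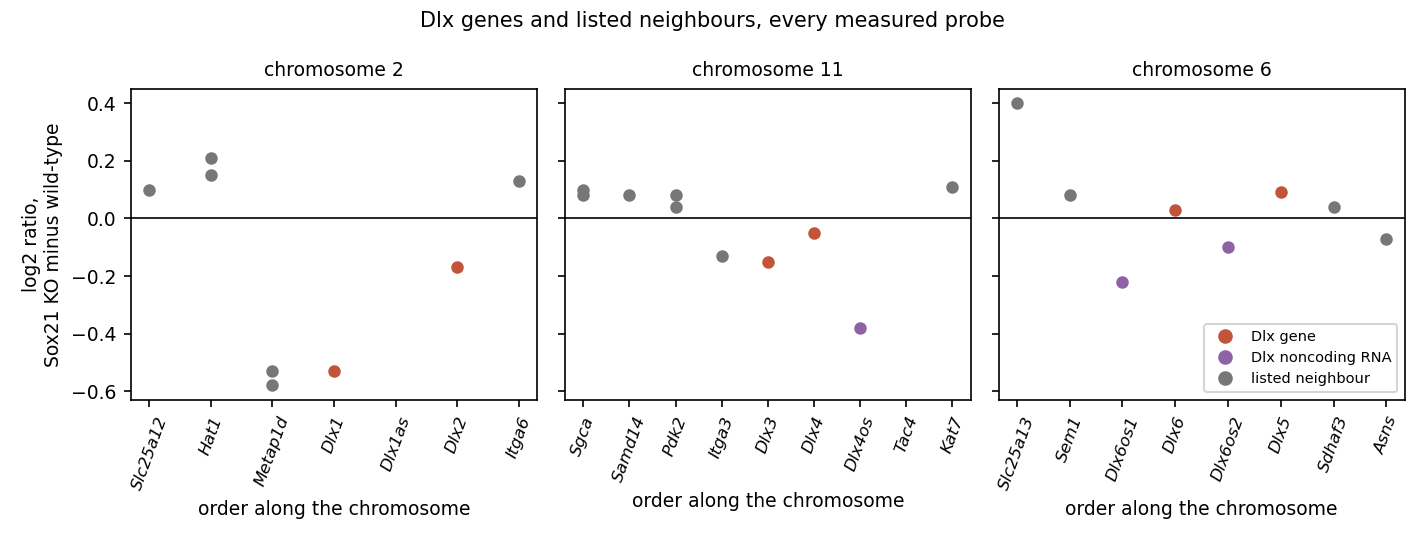
Log2 ratio (*Sox21* KO minus wild-type) of every probe measured on both arrays for the Dlx genes (red), their noncoding RNAs (purple) and the listed neighbours (grey), in order along chromosomes 2, 11 and 6 and not to scale. *Dlx1* at -0.53 and both probes of *Metap1d*, at -0.58 and -0.53, are the lowest points.

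Msx genes, homeobox genes that work with and against Dlx genes in tooth and jaw, were each higher in *Sox21* KO but within 2-fold. *Msx1*, needed for tooth bud growth, had normalized signals of 4.58 and 5.08, a log2 ratio of 0.15. *Msx2*, expressed in ameloblasts and dental mesenchyme, had 17.9 and 19.3, a log2 ratio of 0.11. *Msx3*, a gene of the neural tube, had 0.193 and 0.271, a log2 ratio of 0.49 from a dim probe, and the highest value of the 3 Msx genes was 0.18 under the normal-exponential background correction and 0.22 with no background removed. All 3 Msx genes were higher under each of the 8 scalings and background corrections, and the median of the list ran from 0.12 to 0.24. These settings reuse the same spots and are no independent check. Of all measured genes, 47.6% were lower under the main scaling and 30.7% with the arrays scaled on their medians. The values of *Msx1* and *Msx2* were below the scanner error of the *Dlx2* log2 ratio, 0.20, and their own errors are not given here.

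Signals that act upstream of Dlx genes in the jaw went both ways. Of 15 listed genes, 11 were measured, 6 higher and 5 lower in *Sox21* KO, with a median log2 ratio of 0.13 and none past 2-fold (0 of 11). That median was 0.06 under the normal-exponential background correction and 0.02 with no background removed. *Bmp7* and *Bmp4*, ligands that induce Dlx and Msx genes in dental tissue, had the lowest values. The normalized signal of *Bmp7* was 20.5 in wild-type and 11.3 in *Sox21* KO, a log2 ratio of -0.86. That of *Bmp4* was 28.1 and 15.8, a log2 ratio of -0.83. The endothelin receptor gene *Ednra*, which drives *Dlx5* and *Dlx6* in the lower jaw, had 0.56, *Tfap2a* had 0.47 and the endothelin-converting enzyme gene *Ece1* had 0.30. *Edn1*, the ligand of that receptor, was read by a dim probe, at 0.068 and 0.170 in normalized signal. It was well above background in *Sox21* KO alone, where its signal was at least 2.14-fold higher, a bound without scanner error. This bound compares the brighter signal with the larger of the dimmer one and the lowest signal well above background on its array. *Fgf8* and *Tfap2b*, also dim, were well above background on 1 array each, *Fgf8* at least 1.46-fold lower and *Tfap2b* at least 1.25-fold higher in *Sox21* KO.

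Measured genes downstream of Dlx proteins in the jaw stayed within 2-fold. Of 14 listed, 10 were measured, 6 higher and 4 lower, with a median log2 ratio of 0.03. It turned to -0.01 under the normal-exponential background correction (4 higher and 6 lower). With the arrays scaled on their medians it was 0.12 (9 higher and 1 lower). All measured genes then had a median of 0.11, with 30.7% lower. *Nr2f1* had the lowest value, -0.61 at its brighter and -0.29 at its dimmer probe. *Pitx1*, a lower jaw gene, had 0.26, *Alx1* had 0.21 and *Alx4* had 0.09. *Hand2*, a target of *Dlx5* and *Dlx6* in the lower jaw, had 0.01 and *Gsc* had 0.04, both named after their values were seen.

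Enamel genes were the list with values past 2-fold in *Sox21* KO on the lower side. All 8 were measured, 6 lower and 2 higher, with a median log2 ratio of -0.64. *Slc24a4*, a calcium exchanger of enamel-forming cells, had -2.27, *Amtn* had -1.89 and the protease gene *Klk4* had -1.05. Thus 3 of 8 were at least 2-fold lower, or 2 of 8 when the arrays were scaled on their medians. Among all measured genes, 0.667% were at least 2-fold lower under the main scaling. *Enam* had -0.65 and *Odam* had 0.63. The study chose some of these genes on these arrays, so the count is no independent evidence of a direction. *Dlx3*, reported as an activator of several of them, stood at -0.15.

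Bone and dentin genes that respond to *Dlx3* or *Dlx5* were all measured (10 of 10), 8 higher and 2 lower, with a median of 0.12 and none past 2-fold (0 of 10). Under 4 of the 7 other scalings and background corrections, 6 were higher and 4 lower. *Dmp1* had 0.93, *Spp1* had 0.82, *Ibsp* had 0.55, *Bglap2* had 0.14 and *Bglap* had 0.13, and scaling on array medians put 1 of the 10 past 2-fold. *Dspp* and *Runx2*, named because their probes disagree in sign, had -0.01 and -0.10 at the brighter probe and 0.28 and 0.24 at the dimmer. Hair and epidermal genes of the *Dlx3* and p63 network had 6 of 9 members measured, each above 0 by its brightest probe, with a median of 0.15. *Foxn1*, a hair gene, was past 2-fold at 1.13 from a dim probe (0.110 and 0.241 in normalized signal), although under both alternative background corrections no gene of the list was past 2-fold (0 of 6). *Grhl3* had 0.74. The 4 probes of *Trp63*, which encodes p63, ran from -0.68 to 0.22. On neither array were *Hoxc13*, *Gata3* and *Krt35* well above background. Among proteins that bind Dlx factors, 5 of 6 genes were measured, with a median of -0.12 and the lowest value at *Maged1*, -0.34.

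**Figure D4:**
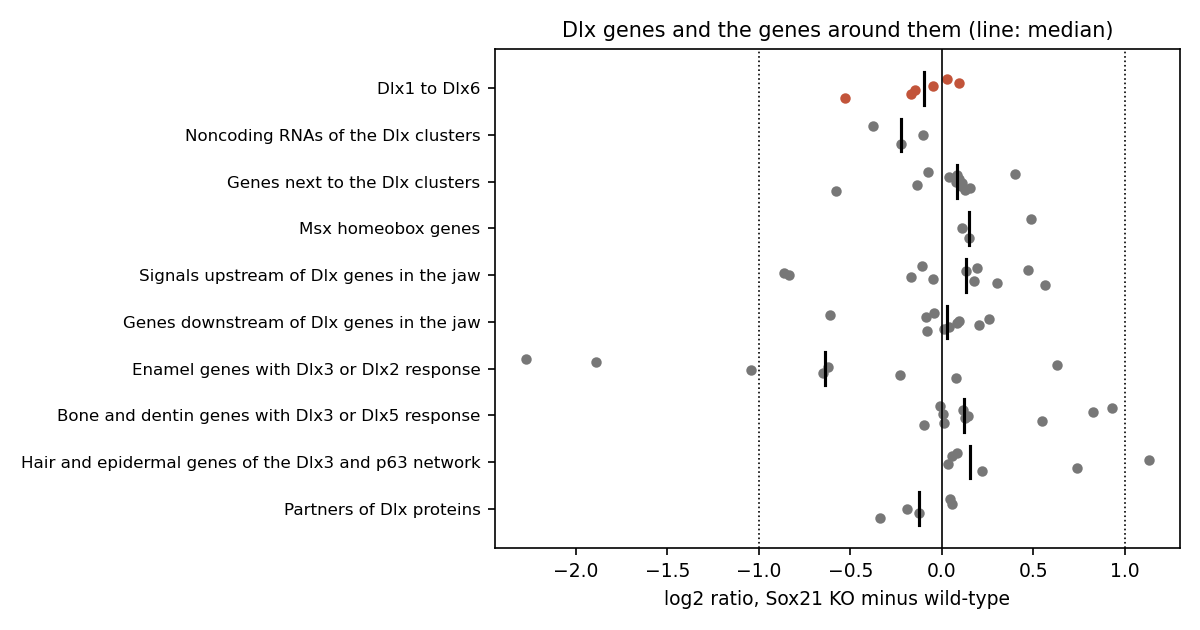
Log2 ratio (*Sox21* KO minus wild-type) of the Dlx genes (red) and of the measured genes of 9 lists around them (grey), each gene by its brightest measured probe, with a black line at each median and dotted lines at 2-fold. The Dlx genes lie between -0.53 and 0.09, the enamel list has the lowest median, -0.64, and 4 genes lie past 2-fold.

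Markers of several cell types also differed between the arrays, some by as much as *Dlx1*. Their counts stand beside 47.6% lower and 1.41% at least 2-fold apart among all measured genes. Of 6 mesenchyme markers, 5 were higher in *Sox21* KO, with a median log2 ratio of 0.18 and values from -0.11 to 0.29. The 6 epithelium markers had a median of 0.20 (5 higher), from -0.09 to 0.27. Each of both lists held 1 lower gene. Of 6 skeletal muscle markers, 5 were lower, with a median of -0.47 and values from -0.71 to 0.64. The 3 measured erythroid markers were all lower, from -0.36 to -0.10. Of the ameloblast markers, 5 of 7 were lower, with a median of -0.62 and 2 past 2-fold (1 with the arrays scaled on their medians). Of the odontoblast markers 3 of 4 were higher, with a median of 0.45. *Dmp1* had 0.93 and *Phex* 0.79, whereas *Col1a1* had 0.11 and *Dspp* had -0.01 at its brighter probe. Bone markers had a median of 0.07 and cartilage markers of 0.26. The 3 measured epidermis markers were all higher, from 0.34 to 1.45 by their brightest probes. The lowest of these, *Krt10*, had 1.84 at its other probe. *Flg*, well above background in *Sox21* KO alone, had normalized signals of 0.089 and 0.459. It was 5.18-fold higher there, a ratio that rests on a dim wild-type spot. *Gad2*, which marks forebrain interneurons that depend on *Dlx1* and *Dlx2*, was well above background on neither array. *Gad1*, well above it in wild-type alone, had normalized signals of 0.206 and 0.075. It was 2.75-fold lower in *Sox21* KO, a ratio that rests on a dim *Sox21* KO spot. *Lhx6*, which dental mesenchyme also expresses, had -0.40 at its brightest and -0.14 at its other measured probe. Of 4 Schwann cell markers, 2 were measured, with a median of -0.09 that turned to 0.01 when the arrays were scaled on their medians. The part of any cell type in the *Dlx1* value was not tested.

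Values of the family under other scalings and background corrections are shown side by side. *Dlx1* ran from -0.56 to -0.43, *Dlx2* from -0.20 to -0.07 and *Dlx3* from -0.19 to -0.05, each below 0 throughout. *Dlx5* ran from 0.06 to 0.19, above 0 throughout. *Dlx4* ran from -0.08 to 0.05 and *Dlx6* from -0.00 to 0.12, on both sides of 0. Scaling on the median of all spots moved the median of all measured genes to 0.11 and shifted all genes alike. Relative to the median of all measured genes, *Dlx1* stood at -0.54 under the main scaling, at -0.47 under the normal-exponential background correction and at -0.50 with no background removed.

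**Figure D5:**
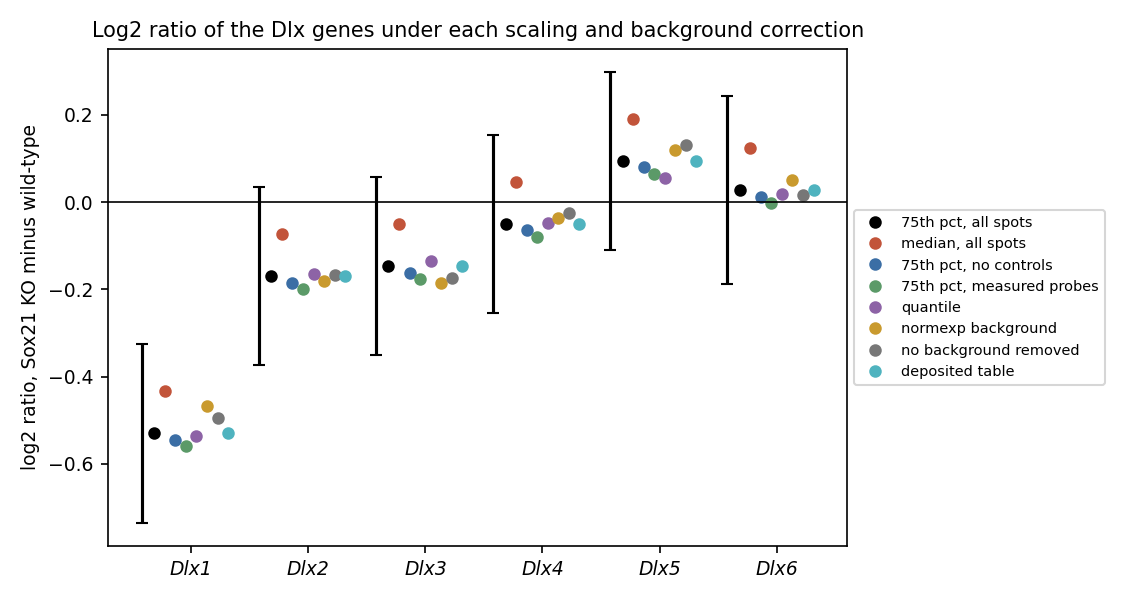
Log2 ratio (*Sox21* KO minus wild-type) of each Dlx gene under the main scaling (black point, with the scanner error of its ratio drawn beside it) and 7 other scalings, background corrections or value tables (coloured points). *Dlx1* stays between -0.56 and -0.43 and *Dlx5* above 0, whereas *Dlx4* and *Dlx6* cross 0.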

How the data were processed

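Cy3-labelled RNA of 1 wild-type and 1 *Sox21* KO incisor sample was hybridized to 2 arrays. The authors deposited, for each of 62976 spots, the processed signal intensity of Agilent Feature Extraction 10.7.3.1 (named in the submitters' processing notes), from which background had been removed, with its error and raw intensities. A table of linear ratios was deposited as well. Its values equal processed signal over 267.8 for wild-type and 275.6 for *Sox21* KO, constant to 2.69e-06, which lie at the 75th percentile of all spots. The columns had medians of 0.0756 and 0.0707. The percentile shift and the filter on low signals in the study's methods carry no percentile or threshold.

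Here, log2 of processed signal over the 75th percentile was averaged over the spots of a probe, leaving out 267 outlier spots. Before that step, accessions named 26300 probes, current symbols 2044 and older ones 355 (RefSeq, GRCm38.p6, names and gene order only), while 26982 kept the file's name. Coordinates are the files' (mm9). Measured genes had a probe that the scanner marked as well above background on each array (49.7% and 50.4% of spots other than controls), and the brightest such probe was used. Saturated spots numbered 0. Named were all members, up to 5 genes of each list farthest from 0, those past 2-fold and the ends of each range of neighbours. Some listed genes are not reported here. Members and lists were chosen with earlier results of these data known. Steps were tested on simulated data. Alternatives changed scaling, background correction (such as normexp, offset 50), value table, filter or probe choice. Python 3.11.15, numpy 2.4.6, pandas 2.3.3, matplotlib 3.10.9, R 4.3.3 and limma 3.58.1 were used.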

Additional observations from a re-analysis of the deposited data

How the results depend on the processing

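Scaling on the median of all spots gave log2 ratios of -0.43 for *Dlx1*, -0.0742 for *Dlx2*, -0.0507 for *Dlx3*, 0.0467 for *Dlx4*, 0.19 for *Dlx5* and 0.12 for *Dlx6*, a family median of -0.0020 and a median of 0.15 over the genes of the lists around the family. It also turned the balance of genes past 2-fold to 135 higher and 63 lower, against 102 and 92. With the 75th percentile over probes well above background, 1 Dlx gene was higher in place of 2. The count of 0 Dlx genes past 2-fold held under all alternatives run. Without the requirement on background, 508 genes were at least 2-fold higher and 695 lower, and under the normal-exponential background correction 46 and 40. No paired analysis was possible because each genotype has 1 array, and no replicate could be left out. The cause of these shifts was not tested.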
